A study of Rattus norvegicus with 11 samples.

Results

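The complement genes described here are C3 (ENSRNOG00000046834), C1qa (ENSRNOG00000012807), C1qb (ENSRNOG00000012804) and Serping1 (ENSRNOG00000007457). They were chosen by Ensembl gene ID, with earlier results of these data known. All 4 IDs were found among the 32623 in the count table. The table holds no gene names, and the gene table used here carries no Ensembl IDs, so the pairing of these IDs with the 4 symbols was not checked against an annotation. RNA came from the ipsilateral spinal cord of adult male rats of 350 to 400 g. The naive group (3 libraries) received no drug and no electrode. Rats labelled PTX+Sham SCS (5 libraries, called sham) received paclitaxel, a microtubule-stabilising chemotherapy drug, by intraperitoneal injection of 1.5 mg/kg on each of days 1, 3, 5 and 7, and had a spinal cord stimulation (SCS) electrode without stimulation. Rats labelled PTX+SCS (3 libraries, called stimulated) had the same drug and electrode and were stimulated at 50 Hz with 0.2 ms pulses, at an intensity the labels give as 80% MoT. No group analysed here had only the drug or only the electrode. Library numbers follow the sample titles, so the stimulated libraries are SCS 1, SCS 2 and SCS 5. The title letter of the stimulated group, S, could also be read as sham, so the direction of stimulated against sham rests on the group label alone.

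Complement is a cascade of proteins that tags cells and debris for removal. C1q, built from A, B and C chains, starts the classical pathway when it binds a tagged surface, and C3 is the central component at which the pathways of activation meet. Serping1 encodes the C1 inhibitor, which blocks the proteases attached to C1q. In the central nervous system microglia are the main source of C1q, C3 is made by reactive glia, and the cascade is known for marking synapses for removal during development and disease.

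RefSeq annotation of the GRCr8 build places C1qb, C1qc and C1qa next to each other on chromosome 5. C3 lies on chromosome 9 and Serping1 on chromosome 3. The 250 bases before the RefSeq start of C3, C1qa and C1qb are shown as the members with an entry in the RefSeq promoter table, and they put both C1q chains beside C3. The sequences are from that table (GRCr8, not the rn6 build of the counts), written in the direction of the gene, and capitals mark matches on either strand to 3 motifs: TTNCGNAA (C/EBP), GGAAGT (the ETS core bound by PU.1, a factor of the myeloid lineage) and TTCNNNGAA (GAS, bound by STAT factors).
C3 (chr9:2201340-2201589, minus strand): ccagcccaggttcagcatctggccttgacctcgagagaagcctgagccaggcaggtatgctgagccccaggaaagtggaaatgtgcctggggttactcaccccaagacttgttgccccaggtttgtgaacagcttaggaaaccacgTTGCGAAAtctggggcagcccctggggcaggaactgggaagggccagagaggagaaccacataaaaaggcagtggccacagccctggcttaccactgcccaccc
C1qa (chr5:154419934-154420183, minus strand): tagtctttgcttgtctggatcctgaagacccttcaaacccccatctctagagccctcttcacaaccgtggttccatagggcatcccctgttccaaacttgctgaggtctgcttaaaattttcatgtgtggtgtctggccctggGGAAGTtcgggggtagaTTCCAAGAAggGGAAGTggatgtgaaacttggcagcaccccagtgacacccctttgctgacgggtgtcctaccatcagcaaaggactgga
C1qb (chr5:154407828-154408077, minus strand): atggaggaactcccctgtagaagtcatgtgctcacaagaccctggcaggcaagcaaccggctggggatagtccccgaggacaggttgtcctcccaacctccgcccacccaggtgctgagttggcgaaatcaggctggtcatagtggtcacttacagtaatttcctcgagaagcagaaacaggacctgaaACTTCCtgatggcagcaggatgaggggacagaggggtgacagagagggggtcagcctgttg
The C3 window held 1 C/EBP match, TTGCGAAA, 104 to 97 bases before the start. The C1qa window held 2 PU.1 core matches, 107 to 102 and 79 to 74 bases before the start, with the GAS match TTCCAAGAA between them. The C1qb window held 1 PU.1 core match on the opposite strand, 61 to 56 bases before the start. No motif was found in all 3 windows. Of 33469 promoter windows of this length, 2.13% held the C/EBP letters, 19.2% the PU.1 core and 7.67% the GAS letters. A match describes the letters only, and binding was not measured.

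Library totals ran from 11243288 to 56775931 counts. Within them C3 had 2360 to 16642 counts per library, C1qa 996 to 9671, C1qb 346 to 5145 and Serping1 577 to 3554. At the lowest of these, counting error alone is 5.38% of the value for C1qb and 2.06% for C3, below the spread between libraries in the sham and stimulated groups. Levels are given as CPM, which scales each library's counts to the same total, on library sizes adjusted by the trimmed mean of M values (TMM). They are not per length, so they are compared between libraries and not between genes. The naive libraries also had the lowest spread over all genes, with a biological coefficient of variation of 6.82%, against 11% in sham and 14.4% in stimulated libraries.

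All 4 genes had their lowest mean in naive, an intermediate mean in sham and their highest mean in stimulated libraries. C3 was at 137, 158 and 154 CPM in naive 1 to 3. In sham 1 to 5 it was at 227, 163, 212, 326 and 316 CPM. In SCS 1, SCS 2 and SCS 5 it was at 428, 891 and 405 CPM. The 3 groups did not overlap, and SCS 2 stood far above the other two stimulated libraries. Group means of C3 were 149 ± 11 CPM (SD, n = 3), 249 ± 70 CPM (SD, n = 5) and 574 ± 274 CPM (SD, n = 3).

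**Figure D1:**
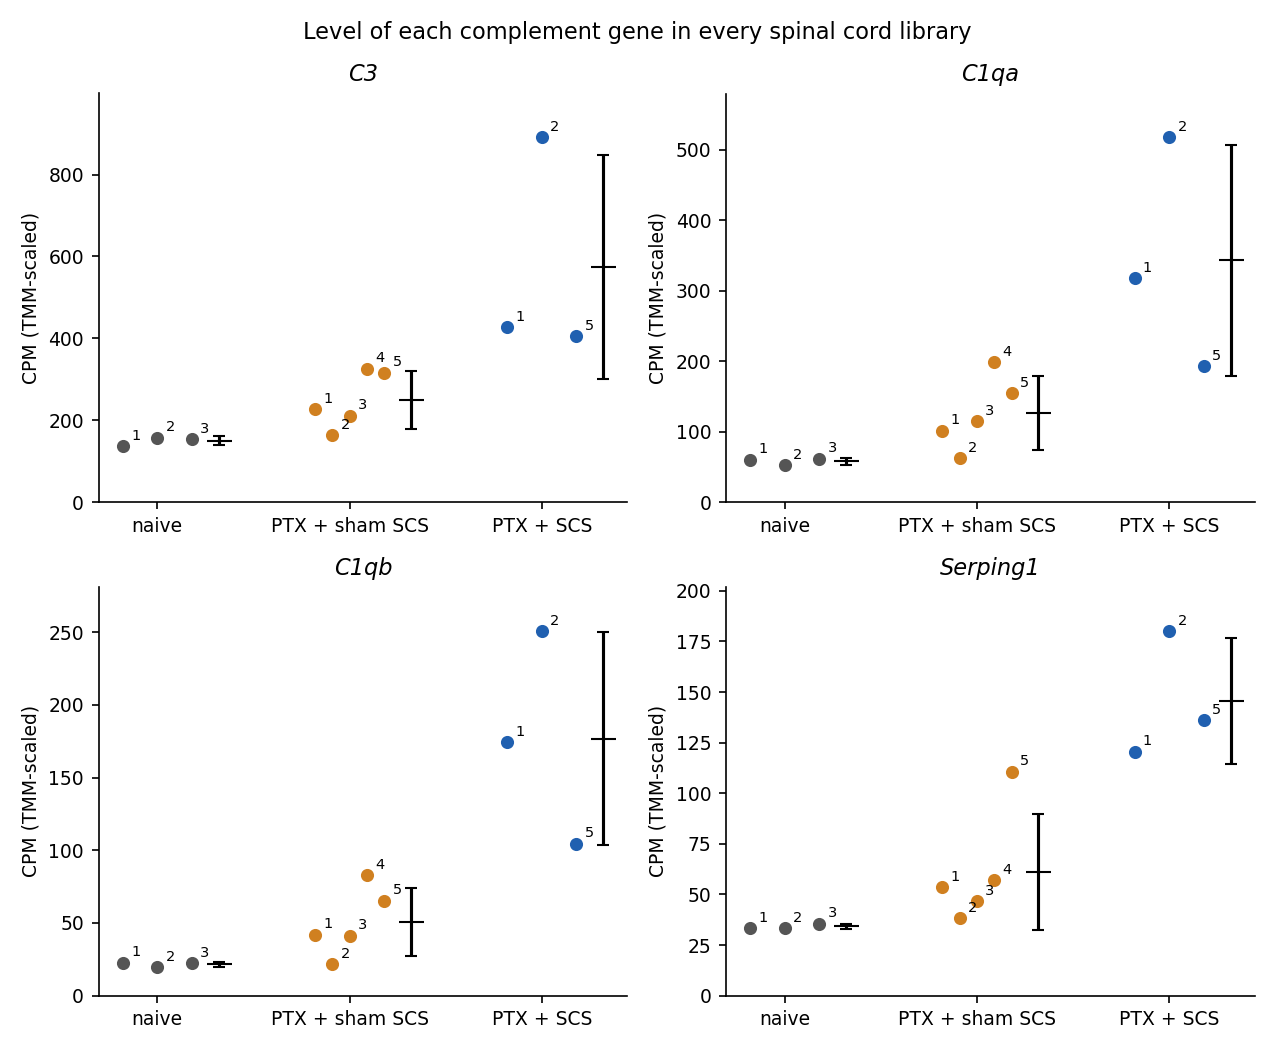
Level of C3, C1qa, C1qb and Serping1 in CPM (vertical axis, from 0) in each of the 11 libraries, by group; points are libraries with their replicate number, and the bar beside each group is the mean with its SD. For C3 the naive libraries lie between 137 and 158 CPM and the stimulated ones between 405 and 891 CPM, with sham libraries between those ranges.

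C1qa, the A chain of C1q, was at 60.4, 52.0 and 61.7 CPM in naive 1 to 3. It was at 101, 63.0, 115, 198 and 155 CPM in sham 1 to 5. It was at 318, 518 and 193 CPM in SCS 1, SCS 2 and SCS 5. Sham 2 was only just above the highest naive library, and SCS 5 lay just below sham 4, so the sham and stimulated groups overlapped by that 1 pair. Group means were 58.1 ± 5.3 CPM (SD, n = 3), 127 ± 52 CPM (SD, n = 5) and 343 ± 164 CPM (SD, n = 3).

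C1qb, the B chain, was at 22.7, 19.7 and 22.3 CPM in naive 1 to 3. It was at 41.96, 21.9, 41.3, 82.8 and 65.3 CPM in sham 1 to 5. It was at 174, 251 and 105 CPM in SCS 1, SCS 2 and SCS 5. Sham 2 fell inside the naive range, while every stimulated library lay above every sham library. Group means were 21.6 ± 1.6 CPM (SD, n = 3), 50.7 ± 23.7 CPM (SD, n = 5) and 177 ± 73 CPM (SD, n = 3).

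Serping1, the inhibitor, was at 33.5, 33.5 and 35.5 CPM in naive 1 to 3. It was at 53.6, 38.1, 46.6, 57.2 and 111 CPM in sham 1 to 5. It was at 121, 180 and 136 CPM in SCS 1, SCS 2 and SCS 5. The groups did not overlap, but sham 5 stood apart from the other sham libraries and close to SCS 1. Group means were 34.2 ± 1.2 CPM (SD, n = 3), 61.2 ± 28.6 CPM (SD, n = 5) and 146 ± 31 CPM (SD, n = 3).

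Stimulated libraries held more of all 4 genes than naive libraries, which differ from them in drug, electrode and stimulation together. All 4 of 4 rose in edgeR's quasi-likelihood test (Benjamini-Hochberg adjusted p under 0.05 over 15758 genes tested), where 10.1% of all genes were called higher. C1qb rose 8.18-fold (log2 3.03 ± 0.49, SE, edgeR adjusted p = 0.00607). C1qa rose 5.90-fold (log2 2.56 ± 0.47, SE, edgeR adjusted p = 0.00998). Serping1 rose 4.25-fold (log2 2.09 ± 0.37, SE, edgeR adjusted p = 0.00807) and C3 rose 3.84-fold (log2 1.94 ± 0.36, SE, edgeR adjusted p = 0.0102). Their log2 fold changes were near the top of the table, since only 0.343% of genes had a higher one than C1qb, 0.692% than C1qa, 1.22% than Serping1 and 1.52% than C3. The median over the 4 genes was 2.32, and over all genes tested it was -0.02. These genes were chosen with earlier results of these data known, so such ranks and shares are a description. In all 4 genes the stimulated and naive libraries did not overlap, as was so, with the stimulated group higher, for 18.1% of all genes. Each call held with any 1 of the 11 libraries left out, some only just. Without naive 2 the edgeR adjusted p was highest, at 0.0499 for C1qa, 0.0430 for C3, 0.0399 for Serping1 and 0.0351 for C1qb. All 4 calls were lost with a surrogate variable in the fit (log2 fold changes 0.22 to 1.07, edgeR adjusted p 0.880 to 0.935), and 75.4% of that variable's variance lay between the groups.

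**Figure D2:**
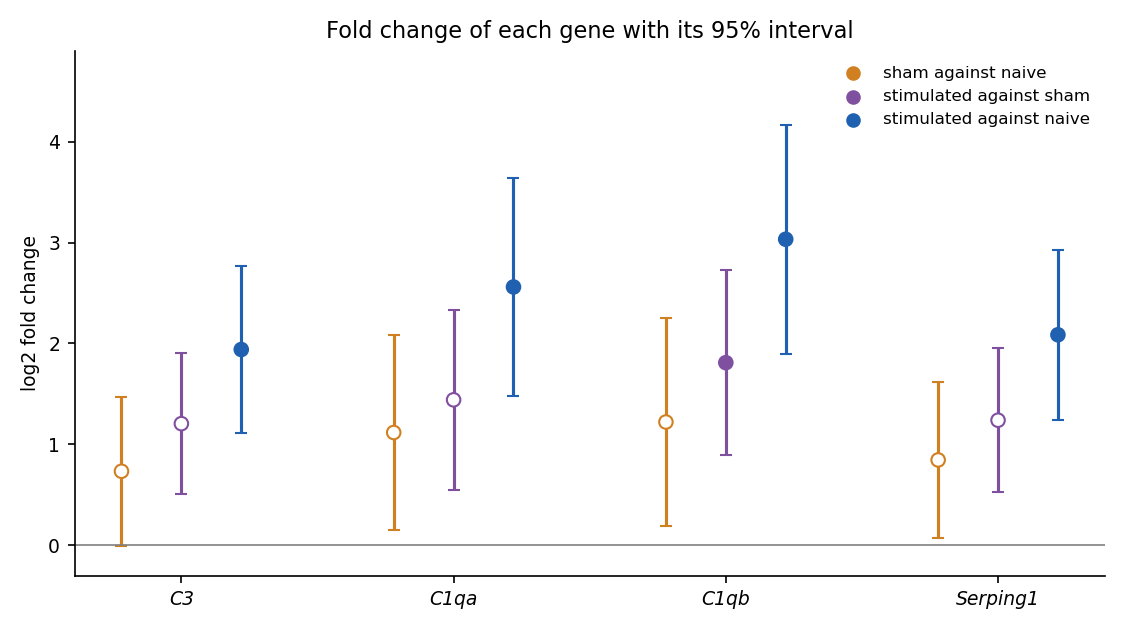
Log2 fold change (vertical axis) of each gene in the 3 comparisons, with its 95% interval; filled points passed the edgeR test at an adjusted p of 0.05 and open points did not. All 4 genes are filled in stimulated against naive, C1qb alone is filled in stimulated against sham, and none is filled in sham against naive.

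Stimulated and sham libraries shared drug and electrode, and in this comparison 1 of the 4 genes rose in the edgeR test, C1qb, where 3% of all genes were called higher. C1qb rose 3.51-fold (log2 1.81 ± 0.40, SE, edgeR adjusted p = 0.0497), close to the threshold. C1qa had a fold of 2.72 (log2 1.44 ± 0.39, SE, edgeR adjusted p = 0.0858), with a 95% interval of 1.46-fold to 5.05-fold. Serping1 had a fold of 2.36 (log2 1.24 ± 0.31, SE, edgeR adjusted p = 0.0687), with an interval of 1.44-fold to 3.87-fold. C3 had a fold of 2.31 (log2 1.21 ± 0.31, SE, edgeR adjusted p = 0.0711), with an interval of 1.42-fold to 3.75-fold. These 3 therefore missed the threshold after adjustment with intervals that lay above 1-fold. Without adjustment their p-values in this edgeR fit were 0.00564, 0.00364 and 0.00389, and 11.9% of all genes were higher at an unadjusted p under 0.05. The median log2 fold change of the 4 genes was 1.34, and that of all genes tested was -0.01. C3, C1qb and Serping1 did not overlap between the groups, as was so for 6.23% of all genes in this direction, and C1qa did.

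Calls in stimulated against sham depended on the tool and on single libraries. DESeq2 called all 4 genes (adjusted p 0.000775 for C1qb, 0.00511 for Serping1, 0.00758 for C3 and 0.00879 for C1qa). The edgeR call of C1qb was lost on leaving out each of 8 libraries in turn (SCS 1, SCS 2, sham 1 to 3 and naive 1 to 3), at adjusted p from 0.0734 to 0.227, the highest without SCS 2. C3 and C1qa passed without SCS 5 (edgeR adjusted p 0.0483 and 0.0434), and Serping1 passed without sham 5 (log2 fold change 1.57, edgeR adjusted p 0.00134). Without SCS 2 the log2 fold changes were 0.75 for C3, 1.03 for C1qa, 1.48 for C1qb and 1.06 for Serping1. Each was below its value with all libraries, a direction given beforehand, since SCS 2 was the highest stimulated library for all 4 genes. In the plot of adjusted p by alternative, stimulated against sham sat on both sides of the threshold with single libraries left out, while stimulated against naive stayed past it in those fits and lost all 4 calls with the surrogate variable and with replicate number as a block.

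**Figure D3:**
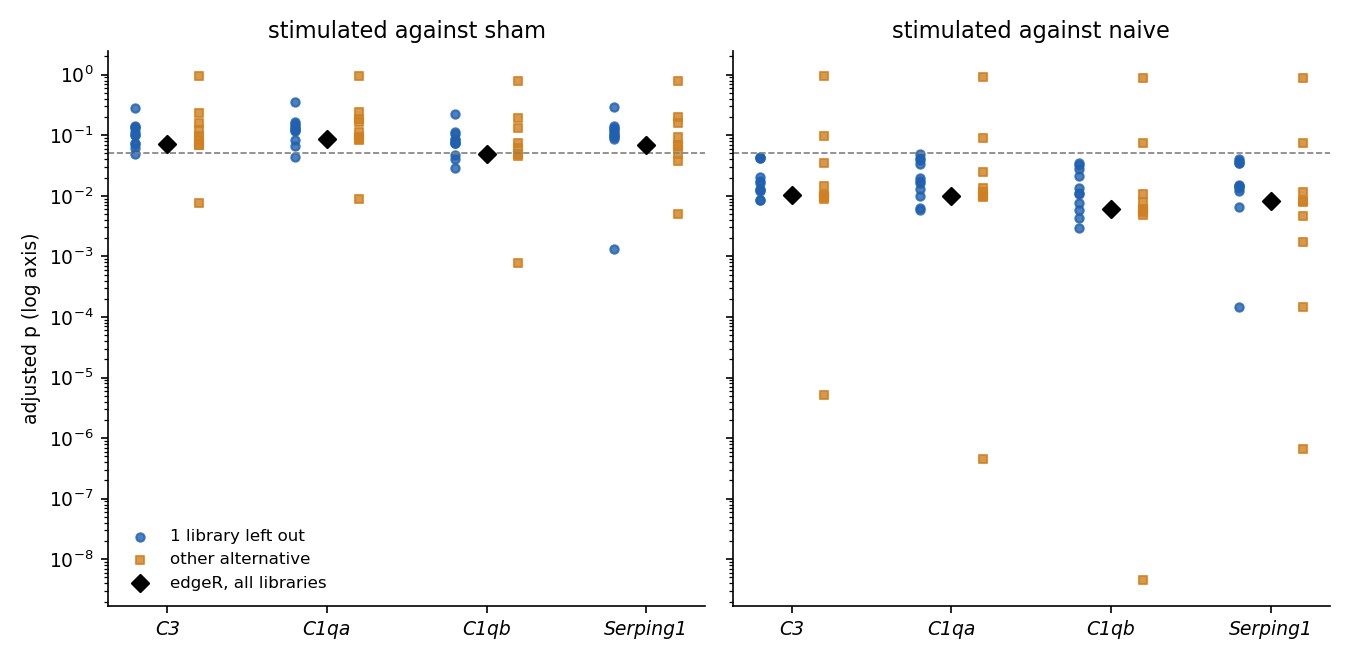
Adjusted p (vertical log axis) of each gene in stimulated against sham (left) and stimulated against naive (right): the black diamond is edgeR with all libraries, blue points leave out 1 library, orange squares are the other alternatives and the dashed line is 0.05. In the left panel the diamonds lie between 0.0497 and 0.0858, next to the line, and in the right panel all blue points are below it.

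In sham against naive libraries, which differ in drug and electrode together, 0 of the 4 genes passed the edgeR test, where 0.133% of all genes were called higher. At an unadjusted p under 0.05 the count was 3 of 4, and 5.43% of all genes were higher at that level. DESeq2 also called 0 of the 4 after adjustment. C1qb had a fold of 2.33 (95% interval 1.14 to 4.76, edgeR adjusted p = 0.559) and C1qa of 2.17 (interval 1.11 to 4.25, edgeR adjusted p = 0.572). Serping1 had a fold of 1.80 (interval 1.06 to 3.06, edgeR adjusted p = 0.590) and C3 of 1.66 (interval 0.997 to 2.78, edgeR adjusted p = 0.625). Sham libraries lay above all naive libraries for C3, C1qa and Serping1, but not for C1qb, and 3.96% of all genes had sham libraries above all naive ones. The median log2 fold change of the 4 genes was 0.98, and that of all genes was 0.01. Both comparisons with sham use the same 5 sham libraries, so their values are given side by side only.

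Libraries of 1 group lay further apart in sham and stimulated than in naive rats. Coefficients of variation (SD over mean of CPM) were 3.49% to 9.05% over the 4 genes in naive libraries, where the median gene had 6.21%. In sham libraries they were 28.2% to 46.7%, against 9.95% for the median gene. In stimulated libraries they were 21.3% to 47.7%, against 10.1% for the median gene. In sham libraries only 5.95% of genes varied more than C1qb, 5.98% more than Serping1, 7.85% more than C1qa and 15.3% more than C3. Naive libraries were thus alike for these genes, while the lowest sham library was within or just above the naive range. The highest sham library was below the stimulated range for C3, C1qb and Serping1 and inside it for C1qa.

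The same libraries marked the ends of these ranges. Sham 2 was the lowest sham library and SCS 2 the highest stimulated library for all 4 genes. Sham 4 was the highest sham library for C3, C1qa and C1qb, and sham 5 for Serping1. The order along the first principal component of all genes, which held 35.7% of the variance, also had sham 2 lowest in its group and SCS 2 highest, but there the highest sham library was sham 5, at 15.5, and sham 4 was at 1.86. Sham 2 was at -23.3, next to the naive libraries at -28.9 to -23.9, and SCS 2 was at 50.7, beyond SCS 5 at 19.2 and SCS 1 at 29.8. The part that this shared difference between libraries plays in the fold changes was not tested. In these bulk samples a larger number of cells of a type and more RNA per cell cannot be told apart, and markers of microglia, astrocytes or blood cells were not analysed here.

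By Pearson r, C1qa and C1qb followed each other most closely of the 6 pairs of genes. The order by Spearman rho differed, with 0.955 highest, for C3 with C1qa and with Serping1, and 0.918 lowest, for C3 with C1qb. Over the 11 libraries log2 CPM of C1qa and C1qb had a Pearson r of 0.994 and a Spearman rho of 0.945. Permutation p was 1e-05, the smallest these permutations can give, for r and 7e-05 for rho. Adjusted over the 6 pairs, permutation p was under 6e-05 for r and 0.000108 for rho. With SCS 2 and SCS 1, the libraries farthest from the median, left out, r was 0.990. C3 and C1qa had r of 0.976 and rho of 0.955 (permutation p 1e-05 and 3e-05, adjusted under 6e-05 and 0.000108), and r was 0.965 without these libraries. C3 and C1qb had r of 0.973 and rho of 0.918 (permutation p 1e-05 and 0.00017, adjusted under 6e-05 and 0.00017), and r was 0.983 without them. Serping1 had the lower values by r but not by rho, with r of 0.944 to C3, 0.936 to C1qb and 0.918 to C1qa. Permutation p of these r values was 1e-05, 5e-05 and 7e-05 (adjusted under 6e-05, 6e-05 and 7e-05). Its rho was 0.955 to C3 and 0.945 to each C1q chain (permutation p 8e-05, 9e-05 for C1qb and 8e-05 for C1qa, adjusted 0.000108), and r was 0.924, 0.889 and 0.847 without SCS 1 and SCS 2.

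Differences between the groups enter those correlations and their permutation p-values, since libraries were shuffled without regard to group. The p-values therefore do not measure likeness within groups, and none was computed for the deviations below. Taken as deviations from each group's mean, r was 0.986 for C1qa and C1qb, 0.899 for C3 and C1qa and 0.876 for C3 and C1qb. For Serping1 it was 0.734 with C3, 0.654 with C1qb and 0.614 with C1qa. Sham 4 and sham 5 show the gap: sham 4 had the highest C1qa of the group at 198 CPM with Serping1 at 57.2 CPM, and sham 5 had Serping1 at 111 CPM with C1qa at 155 CPM.

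**Figure D4:**
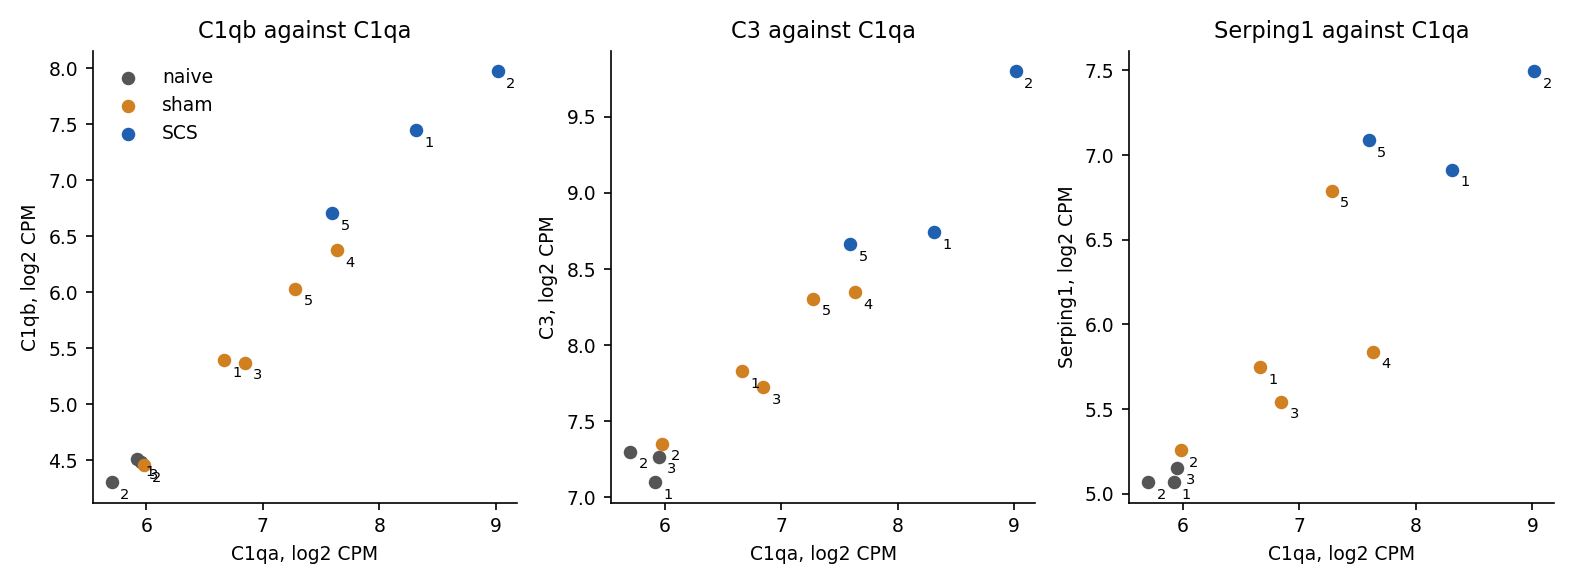
Log2 CPM of C1qb (left), C3 (middle) and Serping1 (right) against log2 CPM of C1qa in the 11 libraries, coloured by group and marked with the replicate number. The points of C1qb lie close to a line (r 0.994), and those of Serping1 scatter more (r 0.918).

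Among all 15757 other genes tested, C1qb ranked 2 in likeness to C1qa by Pearson r over the 11 libraries, and C1qa ranked 4 in likeness to C1qb. C3 ranked 63 for C1qa and 91 for C1qb, and Serping1 ranked 441 and 339. Close likeness was common in this table: 575 genes (3.65%) had an r above 0.9 with C1qa, 590 (3.74%) with C1qb, 616 (3.91%) with C3 and 503 (3.19%) with Serping1. The gene most like C1qa was ENSRNOG00000002045 (r 0.995) and the gene most like C3 was ENSRNOG00000007060 (r 0.990). The former had log2 fold changes of 1.41 ± 0.25 in stimulated against naive (SE, edgeR adjusted p = 0.00649) and 0.79 ± 0.21 in stimulated against sham (SE, edgeR adjusted p = 0.0755). The latter had 1.10 ± 0.15 (SE, edgeR adjusted p = 0.000776) and 0.70 ± 0.13 (SE, edgeR adjusted p = 0.0152). These correlations run over the same 11 libraries in the same 3 groups and are a description.

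Counts of the A chain relative to the B chain were lowest in the stimulated libraries. Within a library the ratio of C1qa to C1qb counts does not depend on library scaling. It was 2.66, 2.65 and 2.77 in naive 1 to 3, with a mean of 2.69 ± 0.07 (SD, n = 3). It was 2.42, 2.88, 2.78, 2.40 and 2.37 in sham 1 to 5, with a mean of 2.57 ± 0.24 (SD, n = 5). It was 1.82, 2.06 and 1.85 in SCS 1, SCS 2 and SCS 5, with a mean of 1.91 ± 0.13 (SD, n = 3). Every stimulated library lay below every other library. The exact (Clopper-Pearson) 95% counting interval reached up to 2.14 in SCS 2, and the lowest lower bound among the other libraries was 2.22, in sham 4. These intervals cover counting error only. No test between groups was made of this ratio, which was read as a description. The share of all gene pairs whose ratio separates in this way was not computed. The lower ratio restates the log2 fold changes of C1qb and C1qa, 3.03 and 2.56 in stimulated against naive and 1.81 and 1.44 in stimulated against sham.

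**Figure D5:**
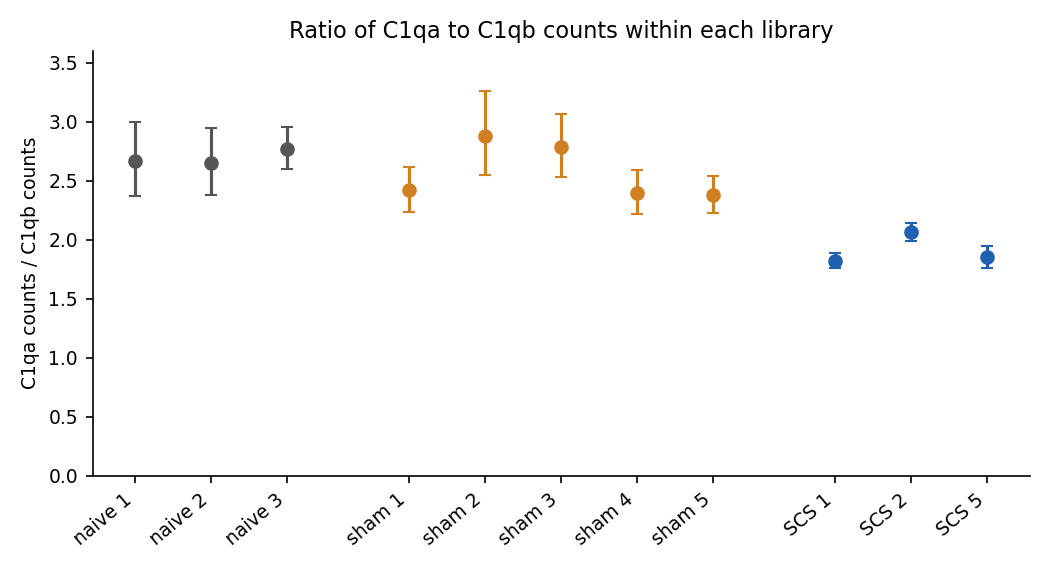
Ratio of C1qa counts to C1qb counts (vertical axis, from 0) in each library, by group, with its exact 95% counting interval. The 3 stimulated libraries lie between 1.82 and 2.06 and the other 8 between 2.37 and 2.88.

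Count ratios of the other pairs were read in the same way, also without a share over all gene pairs to set beside them. C3 to C1qb counts were 6.04 to 8.01 in naive, 3.94 to 7.47 in sham and 2.45 to 3.87 in stimulated libraries, so the stimulated libraries again lay below all others. C3 to C1qa counts were 2.27 to 3.03, 1.64 to 2.59 and 1.35 to 2.10 in these groups, and neighbouring groups overlapped. C3 to Serping1 counts overlapped throughout, at 4.09 to 4.71, 2.86 to 5.70 and 2.98 to 4.94. C1qa to Serping1 counts also overlapped, at 1.55 to 1.80, 1.40 to 3.47 and 1.42 to 2.87. C1qb to Serping1 counts went the other way, at 0.588 to 0.678 in naive, 0.574 to 1.45 in sham and 0.768 to 1.45 in stimulated libraries, so the stimulated libraries lay above all naive ones and overlapped the sham ones. Of the 4 genes, C1qb had the highest fold change in each of the 3 comparisons with all libraries, and C3 the lowest. The order of C3 and Serping1 depended on single libraries. In stimulated against sham without SCS 5 the log2 fold change was 1.40 for C3 and 1.29 for Serping1. In sham against naive without sham 5 it was 0.63 for C3 and 0.51 for Serping1.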

How the data were processed

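The authors deposited 1 table of raw counts, whole numbers for each rat Ensembl gene and library. HISAT2, featureCounts, DESeq2 and build rn6 are named in the submitters' processing notes. The strand setting, annotation release and versions are not given in the sources, so reads of overlapping genes are uncertain. Libraries were poly(A)-selected and directional, per the labels' protocols. Columns were assigned by sample title, and 17 other value columns were not used. Nothing in the labels ties each sample to its own rat, and the spread behind the p-values may be technical. Replicates of 1 group differed by more than sampling noise (chi-square per degree of freedom 4.98 to 27.8).

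The function filterByExpr (edgeR 4.0.16, R 4.3.3) kept 15758 genes, the 4 members among them. A single robust quasi-likelihood model, scaled by TMM and with group as its factor, covered the 11 libraries. For each gene it assumed the same spread in all groups, while the members varied less between naive libraries than between sham or stimulated ones. Its SEs, intervals and p-values rest on that assumption. Tests were two-sided, with Benjamini-Hochberg adjustment over all genes. SE is the size of the log2 fold change over the square root of F, and a prior count of 2 went into log2 CPM. On simulated counts with 200 changed genes, set up for stimulated against sham (15627 genes), 86% of the 2-fold changes were found, and 66% of those of 1.5-fold, with the same spread in each group. Those genes were drawn from the whole table. The 4 members have a biological coefficient of variation of 29.5% to 39.5%, against 11.2% in common over all genes, so these shares do not describe them. Permutation p-values of correlations used 100000 resamples (scipy 1.17.1). Alternatives used DESeq2 1.42.0, limma 3.58.1 and sva 3.50.0.

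Members, gene lists and motifs were chosen with earlier results of these data known. The naming rule took the 4 members and the genes most like them. Lists of other complement genes and of cell type markers could not be looked up, since 0 of the 32623 IDs matched the gene table. All 4 symbols matched RefSeq (GRCr8), and 3 had a promoter entry.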

Additional observations from a re-analysis of the deposited data

Results flagged for a closer look

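Serping1 in sham 5, at 111 CPM, stood apart from the other 4 sham libraries, which lay between 38.1 and 57.2 CPM. The gap to the next library was 0.737 of the group's whole range, above the limit of 0.71 for 5 values. On the log2 scale the gap was 0.619 of the range and below that limit. By chance about 1 group in 20 is marked in this way, and 4 genes were looked at. Sham 5 was not the highest sham library for C3, C1qa or C1qb. Without it Serping1 in stimulated against sham had a log2 fold change of 1.57 (edgeR adjusted p 0.00134), against 1.24 with it (0.0687).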

How the results depend on the processing

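No log2 fold change of the 4 genes changed sign in any of 20 alternatives in the 3 comparisons. In sham against naive none of the 4 passed in any. In stimulated against naive all 4 passed except in the fits with a surrogate variable and with the replicate block. With the surrogate variable C1qa was at 0.55, C1qb at 1.07, C3 at 0.22 and Serping1 at 0.58 there, and C1qb was at 0.59 in stimulated against sham (edgeR adjusted p 0.801). With the replicate number as a block (4 residual degrees of freedom) C1qa was at 2.60, C1qb at 3.03, C3 at 1.87 and Serping1 at 1.88 in stimulated against naive, with adjusted p of 0.0738 to 0.0970, and C1qb at 2.07 in stimulated against sham (0.192). Between same-numbered samples of different groups, deviations from group means over all genes tested had a Pearson r of -0.17 to 0.13. The numbers were not treated as pairs.

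In stimulated against sham DESeq2 also called C1qa (1.45), C3 (1.21) and Serping1 (1.26). Serping1 passed with limma-voom (1.31) and with sample quality weights (1.38). C1qb did not pass with quality weights (1.80), with no filter on low counts (1.82, 0.0626) or with 2 groups only (1.81, 0.134). Leaving out 1 library at a time gave log2 fold changes of 1.48 to 2.08 for C1qb, 1.03 to 1.73 for C1qa, 0.75 to 1.40 for C3 and 1.06 to 1.57 for Serping1. The cause was not tested. With any 1 library of its group left out, the mean C1qa to C1qb ratio was 2.65 to 2.72 in naive libraries. It was 2.49 to 2.62 in sham and 1.84 to 1.96 in stimulated libraries.

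The counts over all genes, on which the background shares rest, moved more. They were 22 for sham against naive, 563 for stimulated against sham and 2342 for stimulated against naive. DESeq2 gave 129 and 1130 in the first and second, limma-voom 11 in the first, 2 groups only 140 in the second, the surrogate variable 9, 1 and 1, and the block 9, 5 and 672. Leaving out 1 library gave 6 (without naive 2) to 56 (without sham 2), 36 (without SCS 2) to 1057 (without sham 5), and 1018 (without naive 2) to 2786.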
